A study of Homo sapiens with 6 samples.

Results

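The Argonaute genes AGO1, AGO2, AGO3 and AGO4 and the GW182 genes TNRC6A, TNRC6B and TNRC6C encode the effectors of microRNA silencing. These 7 genes were chosen by name, 7 of 26613 genes listed in at least 1 library, and all 7 had enough counts to be tested among 15607 genes. They were measured by RNA-seq in 6 cultures of 293T, a HEK293-derived human embryonic kidney line that takes up transfected nucleic acids easily. Of these, 3 cultures had received a miR-941 duplex, a mimic of that microRNA, at 10 nM with a cationic lipid reagent, and 3 had received a scrambled oligonucleotide (the mock group). Cells of both groups were plated 24 h before transfection, the scrambled oligonucleotide's concentration and the time from transfection to harvest are left unstated by the sources used here. All 6 cultures were of 1 cell line, and every difference below lies between cells given these oligonucleotides, with no culture left untransfected.

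Argonaute proteins bind one strand of a small RNA duplex and use its seed, the bases near the 5′ end, to find sites in mRNAs. AGO2 is the member known for cutting fully paired targets in human cells. Scaffold proteins of the TNRC6 family bind Argonautes through glycine-tryptophan repeats and bring in the PAN2-PAN3 and CCR4-NOT deadenylases and the poly(A)-binding protein, after which the mRNA is repressed, decapped and decayed. A transfected duplex is loaded into the same Argonautes that the cell's own microRNAs use.

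The delivered strand is shown with its seed, bases 2 to 8, in capitals, because the question for each gene is also whether its mRNA carries a matching site. The RefSeq table on GRCh38.p14 holds 5 identical copies of it on chromosome 20, and the first, MIR941-1, lies at 63919495 to 63919517 on the plus strand.
miR-941: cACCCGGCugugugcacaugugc

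The sites below are matches to that seed found in transcripts of TNRC6B, TNRC6C and AGO4, with the matching bases in capitals inside 23 bases of transcript. The 7mer GCCGGGT pairs with bases 2 to 8, and the 6mer CCGGGT, contained in every 7mer, with bases 2 to 7. Only the transcript strand was searched.
TNRC6B 3′ UTR 7mer: cggtgaaaGCCGGGTgctagagc
TNRC6C 3′ UTR 6mer: tcagtgccaCCGGGTtggcattg
AGO4 5′ UTR 7mer: gagccggaGCCGGGTccctgtcc

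On GRCh38 the TNRC6B 7mer lies on chromosome 22 at 40325904 to 40325910, in exon 21 of 21 and from base 2663 of a 3′ UTR of 12567 bases. In TNRC6C the 6mer lies on chromosome 17 at 78108070 to 78108075, in exon 21 of 21 and from base 3225 of a 3′ UTR of 3990 bases. The AGO4 match lies on chromosome 1 at 35808235 to 35808241, in exon 1 of 18. All 3 are on the plus strand. No 7mer was found in the coding sequence of any of the 7 genes, and neither a 7mer nor a 6mer in the longest 3′ UTR of AGO1, AGO2, AGO4 or TNRC6A. Positions come from a match to GENCODE release 29 transcripts and not from the hg19 alignment of the authors.

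The libraries held 6079420 to 7651046 counts, so that 3 counts correspond to 0.392 to 0.493 CPM (counts scaled to a common library size). By a chi-square over genes, libraries of the same group differed by 1.29 to 2.51 times the sampling variation, and libraries of different groups by 3.83 to 5.15 times. Of 8 markers that HEK293 cells are known for, 7 were matched to a listed gene and NEFL was not. VIM was the highest, at 1038 ± 31.6 CPM in mimic libraries and 982 ± 39.6 CPM in mock libraries (SD, n = 3 each). PAX2 was the lowest, at 8.53 ± 2.08 CPM in mimic and 6.57 ± 0.623 CPM in mock libraries. The summed level of these 7 was 2110 to 2202 CPM in mimic and 1986 to 2078 CPM in mock libraries. By the test given below, 2 of these 7, NEFM and KRT18, rose, 28.6% called beside 13.0% of all tested genes. Of 8 markers of blood, liver, islet, muscle, glial and connective tissue cells, the 5 that were listed summed to 0.630 to 1.32 CPM in mimic and 0.492 to 1.76 CPM in mock libraries. Mimic replicate 3 lay apart on the second principal component, and mock replicate 3 on the third. Calls lost without either library are given beside the genes.

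Of the 7 genes, 4 were lower after the miR-941 mimic and none was higher. TNRC6C fell most, to 67.0% of its mock level, and AGO4, TNRC6A and AGO2 fell to 83.3%, 85.5% and 86.3%. AGO1, AGO3 and TNRC6B did not pass the test. A gene was called where edgeR's quasi-likelihood test gave an adjusted p under 0.05, adjusted over every gene tested by the Benjamini-Hochberg method. The 4 that fell were also the 4 with an unadjusted p under 0.05, as 3979 of the 15607 tested genes had. AGO1, which differed in the other direction, lay just above that line (unadjusted p = 0.0523 by edgeR). DESeq2 likewise called 0 of the 7 higher. By the rule for calls 13.0% of all tested genes were called, with 6.19% lower and 6.8% higher. The median SE was 0.072 for the 7 genes and 0.094 for all tested genes, so these shares are not like for like. With only genes averaging at least 5 CPM tested, as all 7 do, 15.7% were called. When edgeR's test was kept and other settings or the set of libraries were changed, the share that fell was 3.65% to 7.34%, and without mock replicate 1 the share called was 8.22%. The median log2 fold change of the 7 genes was −0.21, beside 0.0018 for all tested genes. DESeq2's Wald test called TNRC6A and TNRC6C alone among the 7, where 8.7% of the genes with an adjusted p were called and 4.27% fell. In RNA from whole cultures, a lower level in some of the cells and a lower level in every cell cannot be told apart.

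**Figure D1:**
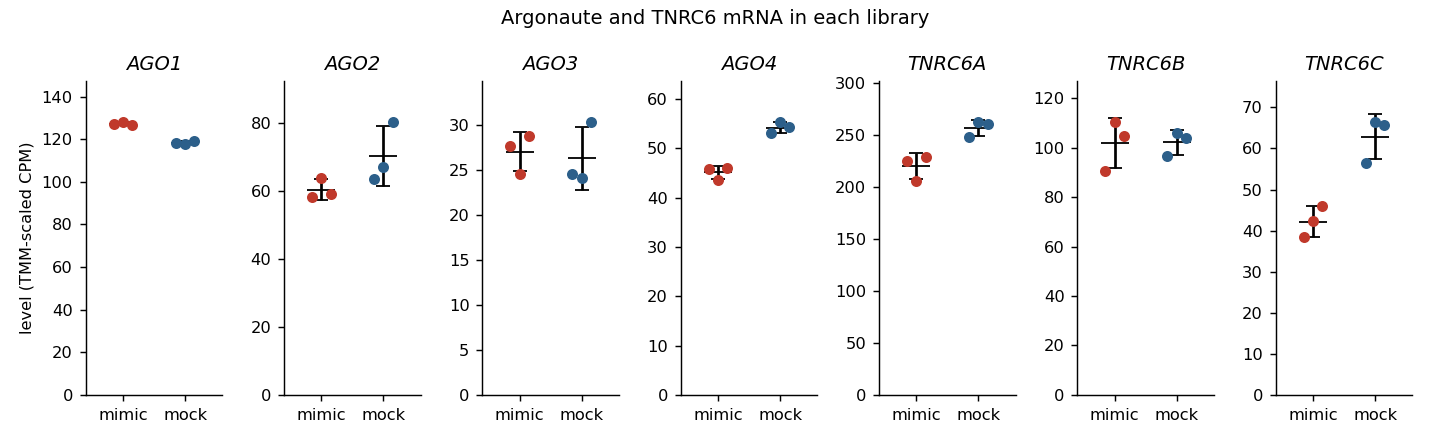
Level of each gene (TMM-scaled CPM, axes from 0) in the 3 mimic and 3 mock libraries, with points for libraries, horizontal bars for means and error bars for SD over 3 libraries. The 3 mimic libraries lie below the 3 mock libraries in AGO4, TNRC6A and TNRC6C and above them in AGO1.

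AGO1 (ENSG00000092847), the Argonaute with the highest level here, had 127, 128 and 127 CPM in the mimic libraries and 118, 118 and 119 CPM in the mock libraries. Every mimic library lay above every mock library, and the spread within each group was under 1 CPM (SD 0.652 for mimic and 0.680 for mock). The log2 fold change was 0.11 ± 0.05 (SE), with a 95% interval of −0.0011 to 0.21 and an adjusted p of 0.201. AGO1 thus did not pass, although its groups were apart, as they were in 28.3% of all tested genes. Among the 7 genes the mimic libraries lay wholly below the mock libraries in AGO4, TNRC6A and TNRC6C, beside 13.9% of all tested genes.

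AGO2 (ENSG00000123908), the slicing Argonaute, had 58.2, 64.0 and 59.0 CPM in the mimic libraries and 63.5, 67.2 and 80.3 CPM in the mock libraries. The groups overlapped, since mimic replicate 2 lay above mock replicate 1, and mock replicate 3 was the highest of the 6 by a wide margin. AGO2 fell by 0.21 ± 0.07 on the log2 scale, with an adjusted p of 0.0391. The call rests on single libraries. It was lost without mock replicate 3 (log2 fold change −0.11, adjusted p = 0.41), without mimic replicate 1 (adjusted p = 0.165) and without mimic replicate 3 (adjusted p = 0.0542), and under DESeq2 (adjusted p = 0.157). Without the third replicate of both groups, an alternative chosen after seeing the data, the log2 fold change was −0.10 and the adjusted p 0.462.

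AGO3 (ENSG00000126070), an Argonaute encoded beside AGO1, had 27.7, 24.6 and 28.8 CPM in the mimic libraries and 24.6, 24.1 and 30.3 CPM in the mock libraries. The groups overlapped throughout, and no difference was called (log2 fold change 0.05 ± 0.10, adjusted p = 0.83). Its 95% interval, from −0.15 to 0.24, leaves room for a mimic level between 90.0% and 118% of the mock level. With 173 to 210 counts per library, AGO3 was the least sampled of the 7 genes.

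AGO4 (ENSG00000134698), the remaining Argonaute and the one with the shortest exons of the 4, had 45.9, 43.6 and 46.0 CPM in the mimic libraries and 53.0, 55.3 and 54.3 CPM in the mock libraries. Both groups were tight and clearly apart. AGO4 fell by 0.26 ± 0.07 on the log2 scale, with an adjusted p of 0.00809 and a 95% interval of −0.41 to −0.12. The call held when any 1 library was left out, with adjusted p between 0.00696 and 0.0433, and narrowly missed the threshold under DESeq2 (adjusted p = 0.0573).

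The genes AGO4 (GRCh38 chr1:35808172-35857890), AGO1 (chr1:35869808-35930528) and AGO3 (chr1:35930718-36072500) lie in this order on the plus strand of chromosome 1, with 11917 bases between AGO4 and AGO1 and 189 bases between AGO1 and AGO3 in the annotation. AGO2 lies apart from them on chromosome 8. Of the 3 neighbours only AGO4 was called. The counts of AGO4 per 100 AGO1 counts were 36.1, 34.0 and 36.2 in the mimic libraries and 44.9, 46.9 and 45.5 in the mock libraries. This ratio within a library does not depend on the scaling between libraries, and the groups did not overlap. It also holds the difference of AGO1, which was higher in every mimic library, so it is not the change of AGO4 alone. An exact two-sided permutation test over the 6 libraries gave p = 0.1, the smallest that 3 against 3 allows, and 0.133 adjusted over the 4 ratios computed between members. The ratio of AGO2 to AGO1 was also lower, at 45.7, 49.9 and 46.5 per 100 in mimic libraries and 53.7, 57.0 and 67.4 per 100 in mock libraries, with the same exact permutation p. AGO1 was higher in every mimic library and the CPM of AGO2 overlapped between groups, so this ratio does not by itself show a fall of AGO2.

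TNRC6A (ENSG00000090905; GRCh38 chr16:24610209-24827632, plus strand), the scaffold with the highest level, had 225, 205 and 229 CPM in the mimic libraries and 248, 262 and 260 CPM in the mock libraries. All mimic libraries lay below all mock libraries. The log2 fold change was −0.23 ± 0.05, with an adjusted p of 0.00050 by edgeR and a 95% interval of −0.32 to −0.13. It passed under all 14 alternatives, with adjusted p up to 0.0148.

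TNRC6B (ENSG00000100354; chr22:40044817-40335808, plus strand), the scaffold with the longest annotated exons, had 90.5, 110 and 105 CPM in the mimic libraries and 96.6, 106 and 104 CPM in the mock libraries. The mock values lay inside the range of the mimic values. Its log2 fold change was −0.0058 ± 0.061 with an adjusted p of 0.97. The 95% interval, −0.13 to 0.12, places the mimic level between 91.5% and 108% of the mock level.

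TNRC6C (ENSG00000078687; chr17:77959240-78108835, plus strand), the scaffold with the lowest CPM, had 38.4, 42.3 and 46.0 CPM in the mimic libraries and 56.6, 66.5 and 65.7 CPM in the mock libraries. In raw counts these were 291, 303 and 292 against 417, 478 and 401. The gap between the groups exceeded the spread within either. TNRC6C fell by 0.58 ± 0.08 on the log2 scale, to between 60.3% and 74.5% of the mock level (95% interval), with an adjusted p of 2.22e-08. It stood at place 132 of the 15607 tested genes by adjusted p, and passed under all 14 alternatives with log2 fold changes between −0.65 and −0.51.

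The counts of TNRC6C per 100 TNRC6B counts were 42.4, 38.4 and 43.9 in the mimic libraries and 58.6, 62.6 and 63.3 in the mock libraries, with no overlap and an exact two-sided permutation p of 0.1, or 0.133 adjusted over the 4 ratios. For TNRC6A per 100 TNRC6B counts the values were 249, 186 and 218 in mimic libraries and 257, 247 and 251 in mock libraries. These overlapped, with an exact permutation p of 0.2.

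**Figure D2:**
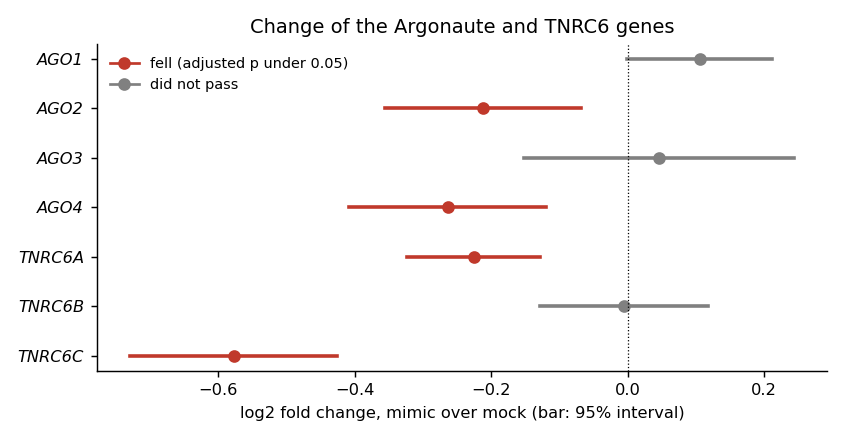
Log2 fold change of each gene, mimic over mock (points), with 95% intervals (bars), where the dotted line marks no difference. The intervals of AGO2, AGO4, TNRC6A and TNRC6C lie below 0, with TNRC6C farthest at −0.58, and those of AGO1, AGO3 and TNRC6B include 0.

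**Figure D3:**
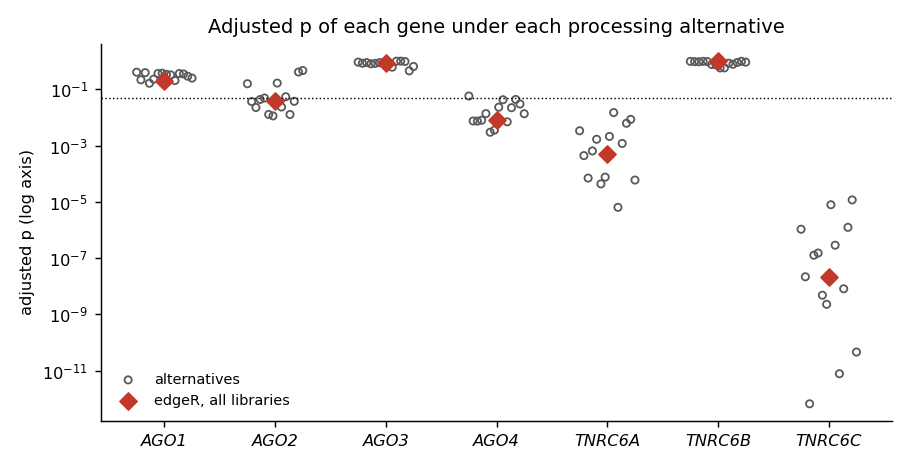
Adjusted p of each gene (log axis) by edgeR on all libraries (diamonds) and under each of 14 processing alternatives (open circles), with the dotted line at 0.05. All circles of TNRC6A and TNRC6C lie under the line, 13 of 14 for AGO4 and 9 of 14 for AGO2, and none for AGO1, AGO3 and TNRC6B.

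Levels of different genes were compared per length, as CPM per kb of annotated exon. TNRC6A stood highest, at 17.0 ± 0.968 in mimic and 19.9 ± 0.595 in mock libraries (SD, n = 3 each). AGO1 came next with 9.17 ± 0.0469 in mimic and 8.53 ± 0.0490 in mock libraries, and then AGO4 with 6.21 ± 0.186 and 7.46 ± 0.159 in the same groups. Each of these 3 stood above the next gene in all 6 libraries. TNRC6B (5.09 ± 0.512 in mimic, 5.11 ± 0.248 in mock), TNRC6C (3.80 ± 0.342 in mimic, 5.66 ± 0.497 in mock) and AGO2 (3.81 ± 0.198 in mimic, 4.44 ± 0.560 in mock) followed. Over all 6 libraries TNRC6B overlapped with TNRC6C, and TNRC6C with AGO2. TNRC6C stood below TNRC6B in each mimic library (3.45, 3.81 and 4.14 against 4.52, 5.52 and 5.23). In each mock library TNRC6C stood above TNRC6B (5.09, 5.98 and 5.92 against 4.83, 5.30 and 5.19). AGO3 was lowest, at 1.28 ± 0.103 in mimic and 1.24 ± 0.165 in mock libraries. Its annotated exons are 21.157 kb long, the longest of the 7. Where a long 3′ UTR is not used in these cells, the level per length is understated, and the use of 3′ ends was not measured. The order of the means over all 6 libraries was the same with the length of the longest transcript.

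Summed over the 4 Argonautes, the level per length was 20.4 to 20.6 CPM per kb in mimic and 21.0 to 22.6 CPM per kb in mock libraries. Without division by length their sum overlapped between groups (258.9, 260.3 and 260.7 CPM in mimic, 259.2, 264.4 and 284.1 CPM in mock libraries). The share of AGO1 in the sum per length was 44.8% ± 0.354 in mimic and 39.4% ± 1.26 in mock libraries, that of AGO4 30.3% ± 0.847 in mimic and 34.4% ± 1.21 in mock libraries. The groups did not overlap for these shares, and they overlapped for AGO2 (18.6% ± 1.00 in mimic and 20.4% ± 1.80 in mock) and AGO3 (6.24% ± 0.488 in mimic and 5.73% ± 0.558 in mock). Summed over the TNRC6 genes, the level was 25.2 to 27.1 CPM per kb in mimic and 29.1 to 31.6 CPM per kb in mock libraries. TNRC6C made up 14.7% ± 0.927 of it in mimic and 18.5% ± 0.840 in mock libraries, and TNRC6B 19.7% ± 2.06 in mimic and 16.7% ± 0.113 in mock libraries. TNRC6A made up most of the sum in both groups, at 65.7% ± 2.80 in mimic and 64.9% ± 0.912 in mock libraries. These sums and shares describe mRNA and were not tested.

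**Figure D4:**
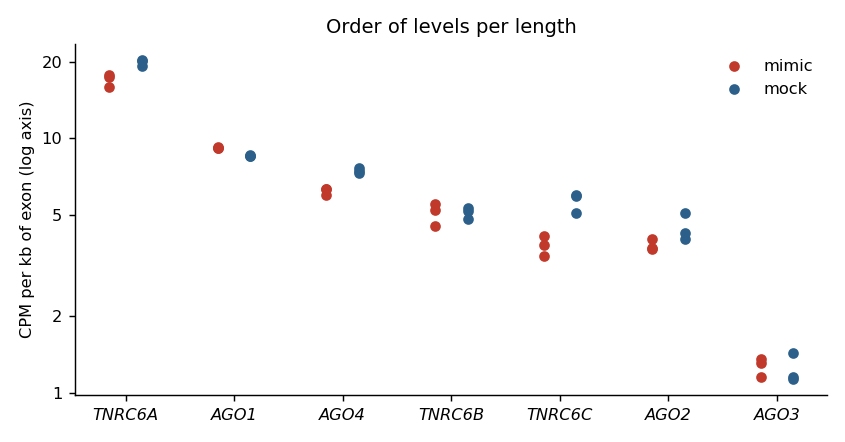
Level per length (CPM per kb of annotated exon, log axis) of each gene in 3 mimic and 3 mock libraries (points), ordered by the mean of all 6. TNRC6A is highest at 15.9 to 20.3 and AGO3 lowest at 1.14 to 1.43, while TNRC6B, TNRC6C and AGO2 overlap.

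The sources used here do not state whether reads were counted by strand, so genes overlapping the 7 were examined. Of the exon bases of TNRC6C, 12.9% overlap TNRC6C-AS1, an RNA annotated on the opposite strand. TNRC6C-AS1 had 11, 10 and 5 counts in mimic libraries and 14, 13 and 8 in mock libraries, 2.74% of the TNRC6C level, and did not pass (log2 fold change −0.45 ± 0.38, adjusted p = 0.503). If strand was ignored in counting, reads of either gene in the overlap cannot be told apart. Unnamed RNAs overlap 2.85% of AGO1, 0.297% of AGO2 and 0.406% of AGO3 exon bases, and none of them was listed in any library. No stretch of 100 bases, the read length, in the longest transcript of any of the 7 was found in a transcript of another gene, apart from those in TNRC6C shared with TNRC6C-AS1 and those in AGO1 shared with its overlapping RNA.

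The 7mer was searched in the 3′ UTR, coding sequence and 5′ UTR, and the 6mer in the 3′ UTR alone. A 7mer in the longest 3′ UTR was present in AGO3 and TNRC6B, which were not called. TNRC6C, which fell most, had a 6mer there, and AGO4, which also fell, a 7mer in the 5′ UTR. AGO2 and TNRC6A, which fell, and AGO1, which was not called, had neither of these in the 3′ UTR and no 7mer in the 5′ UTR. The 7mer was in 2 of the 7 genes, against 4.87% of the 13015 tested genes with a 3′ UTR, and the 6mer in 3 of the 7, against 13.4%. The 7 genes all have 3′ UTRs longer than the median of 1402 bases, from 2420 bases in TNRC6A to 16755 in AGO3. Among tested genes with a 3′ UTR at least as long as that of TNRC6A, 10.1% had the 7mer. The genes with the 7mer, AGO3 and TNRC6B, have far longer 3′ UTRs (16755 and 12567 bases), so this share is not matched to their length. A share for the 6mer among genes with a 3′ UTR at least as long as that of TNRC6A was not computed. In the 5′ UTR, where the AGO4 match lies, 3.70% of the tested genes with a 3′ UTR have a 7mer. Whether the matches bear on the levels was not tested.

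Partner genes of the pathway were described by 7 lists with 67 genes, of which 63 were tested, 8 rose and 7 fell. That is 23.8% called, beside 13.0% of all tested genes, and the median log2 fold change was 0.0070. Partners had smaller SEs (median 0.055) than all tested genes (median 0.094), so the shares are not like for like. The excess over all genes was not stable in size, although the share of partners was above that of all tested genes under every alternative. The alternatives given next are those with the fewest partners called, and under others up to 25.4% were called. Without mock replicate 3, 6 partners or 9.52% were called, beside 8.68% of all tested genes, and DESeq2 called 6 or 9.68%, beside 8.7%. The count was 8, or 12.7%, without mimic replicate 1 and again without mock replicate 1, beside 9.14% and 8.22% of all tested genes. ANKRD52, FKBP4, P4HB, FMR1 and HSPA8 passed under all 14 alternatives. Without mock replicate 3, CNOT7 passed as well, and FXR2, TARBP2, FAM120A, PATL1, CNOT6L, DCP2, PABPC1, AHSA1 and PPP6C lost their calls, with adjusted p between 0.065 and 0.267. Without mimic replicate 3, CNOT6L, PABPC1, TARBP2 and PATL1 lost theirs, with adjusted p between 0.0938 and 0.24. DCP1A was not analysed here.

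Genes that modify or turn over Argonautes held the partner with the smallest p. Argonautes are phosphorylated by the kinase CSNK1A1 upon target binding and dephosphorylated by the phosphatase PPP6C with its regulatory subunit ANKRD52. ANKRD52 had 216 ± 14.3 CPM in mimic and 360 ± 5.69 CPM in mock libraries, a log2 fold change of −0.74 ± 0.05 with an adjusted p of 8.42e-20. The 3′ UTR of ANKRD52 holds a 6mer on chromosome 12 at 56240172 to 56240177, minus strand, and a 7mer at 56240918 to 56240924. Whether either site bears on the level was not tested. The 7mer is shown here for comparison with the sites above.
ANKRD52 3′ UTR 7mer: gagaacttGCCGGGTgtgagtcg

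PPP6C itself had 126 ± 1.92 CPM in mimic and 140 ± 7.58 CPM in mock libraries. Its adjusted p of 0.0496 lies at the threshold, and it passed under 5 of 14 alternatives. CSNK1A1, which has a 7mer in its 3′ UTR, did not pass, at 159 ± 0.585 CPM in mimic and 169 ± 1.16 CPM in mock libraries (adjusted p = 0.241). Of the 63 tested partners 3 had a 7mer in the longest 3′ UTR, and WTIP, the third, did not pass (log2 fold change −0.21 ± 0.13, adjusted p = 0.314). P4HB, an endoplasmic reticulum disulfide isomerase and a subunit of the prolyl hydroxylase that acts on AGO2, rose to 809 ± 24.6 CPM in mimic libraries, against 638 ± 15.2 CPM in mock libraries. In this list of 13 genes 1 rose and 2 fell, 23.1% called beside 13.0% of all tested genes. The median log2 fold change was 0.00019.

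Among 9 chaperones of duplex loading 2 rose and 1 fell (median 0.10), 33.3% called beside 13.0% of all tested genes. FKBP4, a co-chaperone of HSP90, fell to 251 ± 7.38 CPM in mimic libraries, against 373 ± 7.62 CPM in mock libraries (log2 fold change −0.57 ± 0.05). HSPA8, the constitutive HSP70, rose by 0.19 ± 0.04 on the log2 scale and the HSP90 activator AHSA1 by 0.17 ± 0.05, and the AHSA1 call held under 9 of 14 alternatives. Of 5 genes of Dicer and passenger strand removal 1 was called, or 20%, beside 13.0% of all tested genes (list median −0.03). The Dicer partner TARBP2 fell, with 35.4 ± 4.04 CPM in mimic and 41.9 ± 0.708 CPM in mock libraries. This call held under 7 of 14 alternatives.

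Among 9 proteins found with Argonautes 1 rose and 2 fell (median 0.02), 33.3% called beside 13.0% of all tested genes. The RNA-binding protein gene FMR1 fell to 148 ± 10.2 CPM in mimic libraries, against 183 ± 13.1 CPM in mock libraries. FAM120A, another RNA-binding protein gene, changed by −0.17 ± 0.05 in log2 units and FXR2, a relative of FMR1, by 0.16 ± 0.05. Exons of FXR2 and FAM120A overlap on the opposite strand those of MPDU1 and FAM120AOS, counted at 66.3% and 30.3% of their level, so both are less certain.

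Downstream of TNRC6, 2 of 14 deadenylase and poly(A)-binding genes rose and 1 fell (median 0.03), 21.4% called beside 13.0% of all tested genes. Of the catalytic deadenylases CNOT7 was higher and CNOT6L lower, with CNOT7 at 76.9 ± 1.87 CPM in mimic and 65.3 ± 3.38 CPM in mock libraries (log2 fold change 0.24 ± 0.06), and CNOT6L at 31.2 ± 2.09 CPM in mimic and 37.3 ± 0.411 CPM in mock libraries (−0.25 ± 0.09). The CNOT6L call held under 7 of 14 alternatives and that of CNOT7 under 12, and CNOT6, CNOT8 and PAN2 did not pass. VPS37A, at 55.0% of the CNOT7 level, has exons opposite those of CNOT7, which makes that value less certain. PABPC1, the main cytoplasmic poly(A)-binding protein gene, changed by 0.15 ± 0.05, a call held under 8 of 14 alternatives. In the list of repression and decapping, 2 of 12 tested genes rose and 10 did not pass (median −0.04). That is 16.7% called, near the 13.0% of all tested genes. The 2 that rose were DCP2, the decapping enzyme, by 0.20 ± 0.06 and the decapping activator PATL1 by 0.19 ± 0.06, each passing under 9 of 14 alternatives.

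**Figure D5:**
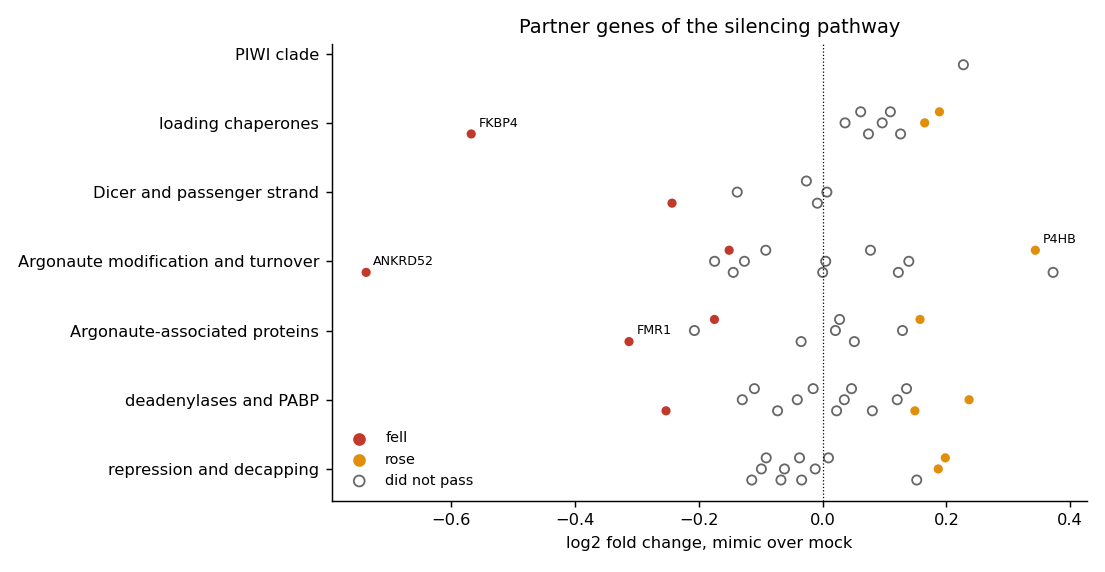
Log2 fold change, mimic over mock, of each tested partner gene (points) in 7 lists, with filled points for genes past the threshold. ANKRD52 at −0.74 and FKBP4 at −0.57 lie farthest below 0, and P4HB at 0.34 is the highest of the called genes.

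The PIWI genes, the other branch of the Argonaute family, act mainly in the germline. PIWIL4 alone was tested, at 4.64 ± 0.0956 CPM in mimic and 3.93 ± 0.667 CPM in mock libraries (log2 fold change 0.23 ± 0.22, adjusted p = 0.577). PIWIL2 had 5, 2 and 5 counts in mimic libraries and 8, 3 and 5 in mock libraries, and PIWIL1 and PIWIL3 had 1 count each over all 6 libraries.

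The genes whose pattern was most like that of TNRC6C were PUS7, ID3 and CACNA2D1, by the distance between centred log2 CPM over the 6 libraries with genes averaging under 5 CPM left out. The distances were 0.17, 0.18 and 0.19 log2 units. PUS7, a pseudouridine synthase, had 34.2, 32.5 and 35.6 CPM in mimic libraries and 44.8, 52.8 and 52.6 CPM in mock libraries. ID3, an inhibitor of basic helix-loop-helix factors, had 15.7, 17.0 and 19.2 CPM in mimic libraries and 22.9, 23.9 and 24.9 CPM in mock libraries. CACNA2D1, a calcium channel subunit, had 41.0, 45.4 and 50.8 CPM in mimic libraries and 59.5, 74.2 and 62.5 CPM in mock libraries. These genes were picked for this likeness, so their values are a description. The longest 3′ UTR of PUS7 holds 1 7mer and those of ID3 and CACNA2D1 none.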

How the data were processed

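The authors deposited raw counts per Ensembl gene in a table for each library. STAR, edgeR and hg19 are named, without versions, per the submitters' processing notes. The sources used here do not state the counting program, annotation or strand setting. A gene missing from a table, which lists genes with at least 1 count, was taken as 0. Symbols came from a gene name table for 25141 of 26613 genes and otherwise from GENCODE release 29.

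Libraries were grouped by title. The labels call the transfections independent replicates. Genes were filtered with filterByExpr by group (15607 kept, 99.7% of counts) and scaled by TMM. Groups were compared by the quasi-likelihood test of edgeR, two-sided, with robust dispersions, group as the sole term, and Benjamini-Hochberg adjustment at 0.05. CPM values are TMM-scaled, with SDs over 3 libraries. SEs and 95% intervals come from the test statistic, and percentages of the mock level from the fitted fold change. Intervals cover the spread among these libraries, and without molecular identifiers PCR duplicates remain. Versions were R 4.3.3, edgeR 4.0.16, DESeq2 1.42.0 and mgcv 1.9.3.

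Seed sites were searched in the longest 3′ UTR of protein-coding transcripts in GENCODE release 29. The AGO3 site sequences and positions are not reported here. The members and lists were chosen with earlier results of these data known. Named genes were the 7 members, up to 4 called genes per list by smallest p (up to 2 as values where none passed), genes overlapping a member, and the 3 closest in pattern to the member with the smallest p. CSNK1A1, WTIP, CNOT6, CNOT8, PAN2, PIWIL1, PIWIL2 and PIWIL3 and the partners' overlapping genes were added after their values were seen.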

Additional observations from a re-analysis of the deposited data

How the results depend on the processing

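The 4 calls remained with DESeq2's size factors, with no filter on low counts, with only genes of at least 5 CPM, with a GC content and length offset, and with the replicate block, with or without that offset. DESeq2's Wald test called 1015 genes in place of 2027, 2 of the 7 members in place of 4, with AGO2 at −0.22 and AGO4 at −0.27 not passing, and 6 partners in place of 15. Leaving out 1 library at a time gave 1302 to 2061 genes, 3 or 4 members, 6 to 15 partners, and log2 fold changes of −0.28 to −0.11 for AGO2, −0.014 to 0.15 for AGO3 and −0.072 to 0.075 for TNRC6B, so the signs of AGO3 and TNRC6B are not settled. Without the third replicate of both groups AGO2 was at −0.10. The cause was not tested. Same-numbered libraries did not deviate together (correlations −0.05 to 0.04), and 1 of 3 mimic libraries correlated best with its own number, so the numbers were not taken to pair the samples. The replicate block gave 1819 genes and the same 4 members. The median over all genes moved by less than 0.1 in log2 units under every scaling. At these counts the SE of AGO3, 0.10, limits what could be detected for it.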
